A study of Mus musculus with 2 samples.

Results

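The insulin-like growth factor (IGF) genes described here are the ligands Igf1 and Igf2, the receptors Igf1r and Igf2r, and the binding proteins Igfbp2, Igfbp3, Igfbp4, Igfbp5, Igfbp6 and Igfbp7. They were found by gene symbol, and the set was chosen by the large differences of several binding proteins between WT and KO in these same values. All 10 were listed among the 21829 genes measured. The cells are C2C12, an immortalised mouse myoblast line, kept as growing myoblasts in DMEM with 10% fetal bovine serum and 50 µg/ml gentamicin. WT is the unedited line. KO is a line made from it with CRISPR–Cas9, carrying a single base-pair insertion in an early coding exon of Gne, the enzyme that starts sialic acid synthesis, and it was grown out from a single isolated cell. Both received the same medium and no treatment. Polyadenylated RNA was sequenced from 1 library of each line, so no difference below has a replicate check and no p-value was computed. The values are relative gene levels corrected for transcript length and depth, summing to 568543 in WT and 574253 in KO. Their unit is not named, and they are read here as FPKM (fragments per kilobase of transcript, scaled to library depth).

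IGF1 and IGF2 act through the receptor tyrosine kinase IGF1R, which signals to PI3K, AKT and mTOR, the axis at the centre of the study of these cells. IGF2R has no kinase. It carries IGF2 to lysosomes for degradation and, as the cation-independent mannose 6-phosphate receptor, sorts newly made lysosomal enzymes. The IGFBPs are secreted proteins that hold IGFs outside the cell and either limit or prolong their action. Myoblasts make several of them, and IGF2 and IGFBP5 are well known for their induction when myoblasts differentiate.

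In the library labelled KO, Igfbp2, Igfbp3 and Igfbp5 (3 of the 10 genes) were lower by over 2-fold and Igf2r (1 of 10) was higher by over 2-fold. The other 6 stayed within 2-fold. Among all 10542 genes averaging 1 FPKM or more, 3.43% were lower by over 2-fold and 2.84% higher, or 6.27% in either direction. Fold changes were taken as log2((KO + 1)/(WT + 1)), which understates the change of low genes, and counts beyond 2-fold are on this scale throughout, while ratios of FPKM are named as such. The genes were chosen with these values known, so the counts are a description. Of the 10, 7 passed this filter on the mean, and the other 3 (Igf1, Igf2 and Igfbp4) were low in both libraries. Igf2r, Igfbp2 and Igfbp3 reached that mean through 1 library alone.

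**Figure D1:**
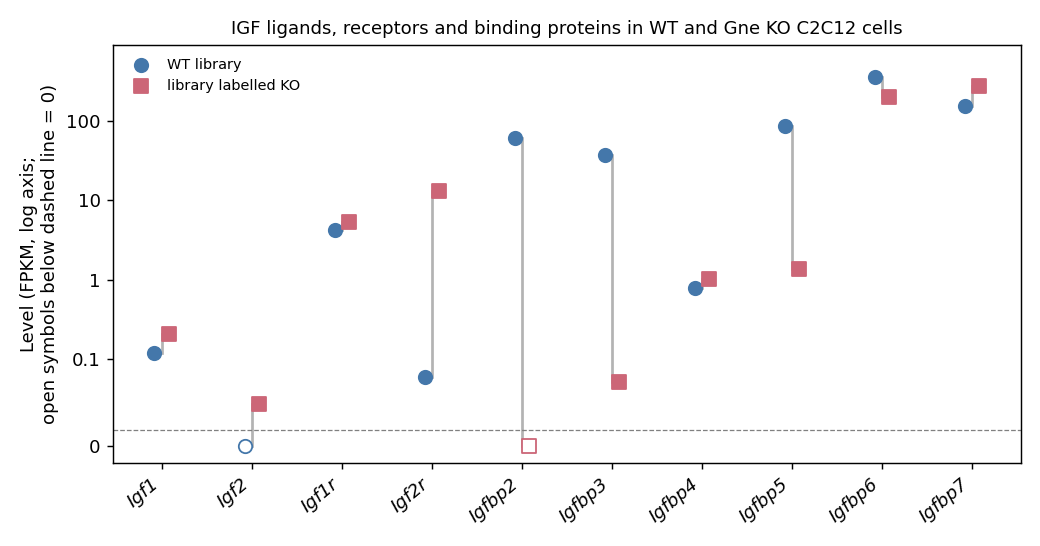
Level of each gene in FPKM on a log axis, with a circle for the WT library, a square for the library labelled KO and open symbols below the dashed line for a value of 0. Igfbp2, Igfbp3 and Igfbp5 lie far lower in the library labelled KO, Igf2r far higher, and the other pairs with both values above 0 lie close together.

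Several facts bear on these values. Gne itself was 6.67 FPKM in WT and 7.34 FPKM in KO, and since an insertion need not lower the RNA, this level does not check the labels. Of 11 myoblast markers, 6 passed the filter, of which 4 were lower and 1 higher by over 2-fold, and the list summed to 246.9 FPKM in WT and 54.2 FPKM in KO. Myod1, a defining myoblast transcription factor, was 59.97 FPKM in WT and listed at 0 in KO, whereas Myf5, its relative, was 9.14 FPKM in WT and 20.3 FPKM in KO. Des was 97.6 and 3.84, Cdh15 16.6 and 0.701, Chrna1 15.3 and 0.917, and Itga7 47.4 and 28.4 FPKM in WT and KO. Of the remaining markers, Pax7 was listed at 0 in both libraries and Myog, Mef2c, Mymk and Mymx were below 1 FPKM in both. Of 8 fibroblast markers, which growing C2C12 cells also express in part, 4 passed the filter and 3 of these were higher by over 2-fold, with a list sum of 258.6 FPKM in WT and 941.9 FPKM in KO. They were the collagen genes Col1a1, at 9.66 and 273.4 FPKM, and Col1a2, at 237.5 and 620.6 FPKM, and Postn, at 0.440 and 33.9 FPKM in WT and KO. Pdgfra, the other marker past the filter, changed little, at 10.8 FPKM in WT and 12.3 FPKM in KO. Dcn, below the filter, was 0.272 FPKM in WT and 1.68 FPKM in KO, and Thy1, Lum and Fap were at 0 in both. The endothelial list summed to at most 0.08 FPKM, the macrophage list to 2.90 and 1.14 FPKM in WT and KO with Ptprc, Adgre1 and Itgam at 0 in both, and the adipocyte list to at most 0.321 FPKM. The part of the myoblast and fibroblast genes in the IGF values was not tested, and in RNA from a whole culture fewer cells of a type cannot be told apart from less RNA per cell.

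Depth sets how low a value can be read. Among genes with a single annotated transcript and a value below 0.25 FPKM, the product of value and transcript length (FPKM times kb) was most often near 0.0372 in WT and 0.0406 in KO. If that step stands for 1 fragment and the unit is FPKM, the libraries held about 26900000 and 24600000 fragments. Fragment numbers given below rest on this estimate and on GENCODE lengths, and cover counting error only.

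The ligands were listed at or near 0 in these growing cells. Igf1, the ligand induced by growth hormone and by muscle injury, was 0.121 FPKM in WT and 0.210 FPKM in KO, or about 23 and 37 fragments. Igf2, the fetal and muscle-differentiation ligand, was listed at 0 in WT and at 0.027 FPKM in KO, about 2 fragments. Neither level supports a comparison between the libraries. The imprinted RNAs H19 and Airn were not found under these symbols among the genes measured, so no level is given for them. Grb10, an imprinted adaptor that restrains IGF1R, was 0.007 FPKM in WT and 0.064 FPKM in KO. Slc22a2, Slc22a3 and Mas1, which lie beside Igf2r, were at 0 in both.

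The receptors differed from each other. Igf1r, the signalling receptor, was 4.25 FPKM in WT and 5.30 FPKM in KO, a log2 fold change of 0.26, just above the upper quartile of all genes, 0.23. Igf2r was 0.059 FPKM in WT, about 14 fragments, and 12.97 FPKM in KO, about 2856 fragments. The ratio of the KO to the WT value was 219.8, and the log2 fold change of 3.72 ranked 16 from the highest of 10542. In WT, Igf1r was thus the more abundant receptor RNA per length, and in KO it was Igf2r. Insr, the insulin receptor and closest relative of Igf1r, was 3.97 FPKM in WT and 4.72 FPKM in KO. Igf2r overlaps Airn, transcribed from the opposite strand. Both descriptions of the libraries name a strand-specific kit, but whether strand was used in counting is not given in the sources used here, so without it reads of the pair could not be told apart.

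M6pr, the cation-dependent receptor that shares the sorting of lysosomal enzymes with Igf2r, was 80.3 FPKM in WT and 71.3 FPKM in KO. All 7 genes of the mannose 6-phosphate sorting list were measured above the filter and none was more than 2-fold changed. Their median log2 fold change was 0.0053, against 0.0061 for all genes, and the most different, Gnptab, a subunit of the enzyme that adds the mannose 6-phosphate mark, was 12.9 FPKM in WT and 20.1 FPKM in KO.

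Among the binding proteins, Igfbp2, a broadly made carrier of IGF2, was 60.05 FPKM in WT, about 2133 fragments, and listed at 0 in KO. Since 1 fragment would read about 0.031 FPKM for this gene in KO, the listed value is below that of a single fragment, and no fold is given against 0. Igfbp3, the main carrier of IGFs in blood, was 37.2 FPKM in WT and 0.052 FPKM in KO. The WT value was 716 times the KO value, which itself stands on about 3 fragments, and the exact 95% counting interval of the ratio ran from 282 to 4006. Igfbp5, which binds the extracellular matrix and rises in differentiating muscle, was 85.9 FPKM in WT and 1.36 FPKM in KO, a ratio of WT to KO of 63.3 with about 201 fragments behind the lower value. Their log2 fold changes of -5.93 for Igfbp2, -5.20 for Igfbp5 and -5.18 for Igfbp3 ranked 2, 4 and 5 from the lowest of 10542. That of Igfbp2 is set by the pseudocount because of the 0. In KO the value of Igfbp5 thus stands on far more fragments than that of Igfbp3.

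The other binding proteins changed less. Igfbp6, a carrier with a preference for IGF2, was the most abundant of the 10 genes in WT at 351.9 FPKM, and was 197.9 FPKM in KO. Igfbp7, a related protein that binds IGFs weakly and lies in the basement membrane of vessels, was 154.0 FPKM in WT and 273.5 FPKM in KO. Their log2 fold changes were nearly equal in size and opposite in direction, -0.83 for Igfbp6 and 0.82 for Igfbp7, both short of 2-fold, and the ratio of Igfbp6 to Igfbp7 went from 2.29 to 0.724. Igfbp6 ranked 481 from the lowest and Igfbp7 430 from the highest of 10542. Igfbp4, an inhibitor of IGF action that is cleaved by pappalysin, was 0.783 FPKM in WT and 1.01 FPKM in KO.

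Per length, the level of the 6 binding protein RNAs summed to 689.9 FPKM in WT and 473.8 FPKM in KO, 0.687 times the WT sum. Igfbp2, Igfbp3 and Igfbp5 together made up 26.6% of the sum in WT and 0.297% in KO. Igfbp6 and Igfbp7 together summed to 505.9 FPKM in WT and 471.4 FPKM in KO, so most of the net difference lay in the former 3 genes. Within that pooled sum, Igfbp6 went from 351.9 FPKM in WT to 197.9 FPKM in KO, the largest fall in FPKM of any single binding protein. The rise of Igfbp7, from 154.0 to 273.5 FPKM, offset most of it. The leading binding protein RNA was Igfbp6 in WT, with 51.01% of the sum, and Igfbp7 in KO, with 57.7%.

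**Figure D2:**
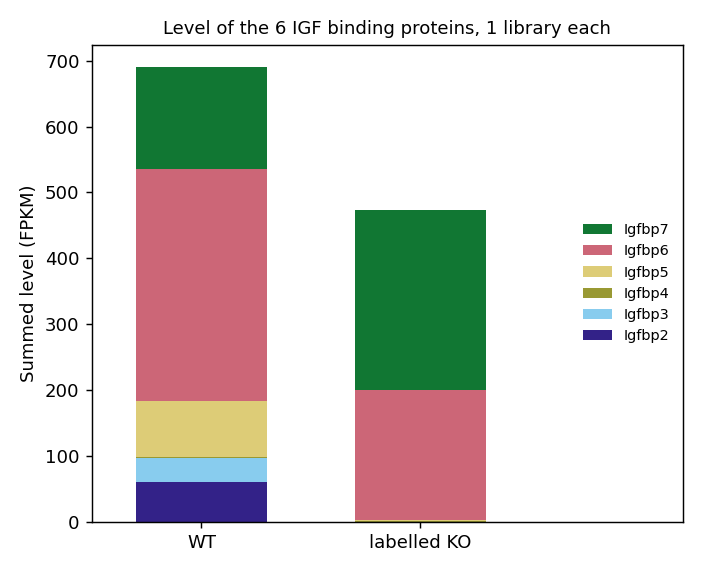
Stacked levels in FPKM of Igfbp2 to Igfbp7 in the 2 libraries, on an axis that starts at 0. The blocks of Igfbp2, Igfbp3 and Igfbp5 that stand at the foot of the WT bar are almost absent from the KO bar, and the Igfbp7 block is the larger in KO.

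**Figure D3:**
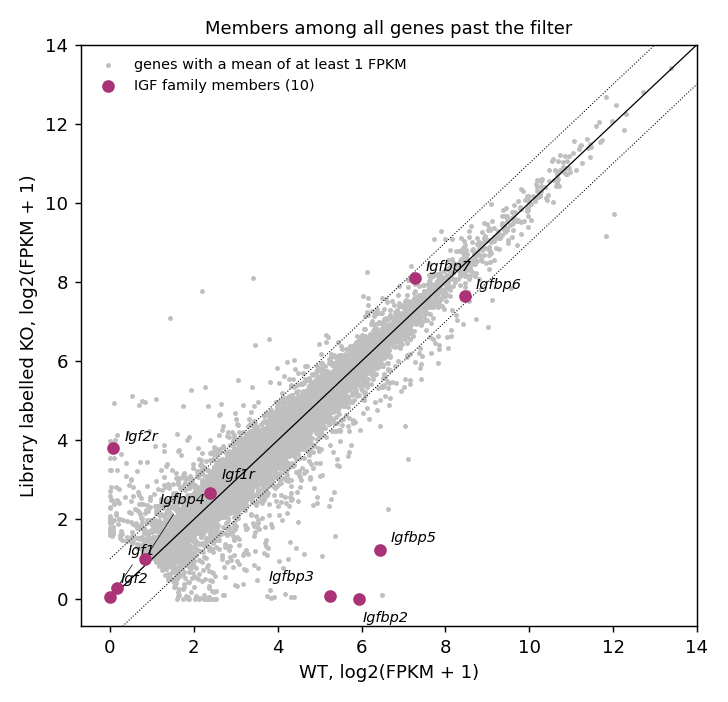
Levels of the 10542 genes past the filter (grey) and of the 10 IGF genes (purple), as log2(FPKM + 1), with WT on the horizontal and the library labelled KO on the vertical axis. Dotted lines mark 2-fold changes, and Igfbp2, Igfbp3 and Igfbp5 lie near the lower edge of the cloud and Igf2r at its left edge.

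With 2 libraries, the pattern of a gene is a pair of levels, and likeness was measured as the distance between pairs on the log2(FPKM + 1) scale. The gene nearest to Igfbp2 was Myod1, at a distance of 0.0017, followed by Stmn2 at 0.571. Igfbp2 and Myod1 were both listed at 0 in KO, so their distance compares only the WT values, 60.05 and 59.97 FPKM. Whether genes with near pairs of levels share regulation was not tested. Igfbp3 lay nearest to Myod1, at 0.677, and then to Igfbp2, at 0.679. Igfbp5 lay nearest to Des, the muscle intermediate filament, at 1.05, and then to Fmo1, at 1.13, with 40.3 FPKM in WT and 2.00 FPKM in KO. Igf2r lay nearest to Casd1, at 0.090, and Smim20, at 0.098, both listed at 0 in WT and at 13.3 and 13.5 FPKM in KO. Casd1 adds acetyl groups to sialic acid, and Smim20 takes part in the assembly of a mitochondrial respiratory complex that nearly every cell uses. Whether a 0 in these values is a failed estimate was not tested, and the values of Igfbp2 in KO, Igf2 in WT and other genes at 0 are given only as listed. The low Igf2r value in WT, so close to these pairs, was not tested for this either, and the Igf2r ratio depends on it. Exactly 0 in 1 library beside at least 5 FPKM in the other was found for 7 genes in WT and for 2 in KO, the latter being Igfbp2 and Myod1.

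Igfbp2 and Igfbp5 are neighbours on chromosome 1, transcribed toward each other with 5.5 kb between their ends in the GENCODE vM39 annotation of GRCm39. Igfbp2 spans 72863606 to 72891634 on the plus strand and Igfbp5 spans 72897091 to 72914043 on the minus strand. The next genes past the filter were Rpl37a, 107.5 kb before Igfbp2, at 1562 FPKM in WT and 1807 FPKM in KO, and Tns1, 1035 kb after Igfbp5, at 37.4 FPKM in WT and 48.3 FPKM in KO. The 47 genes within 5 Mb had a median log2 fold change of 0.02, and none was as low as either gene. The lowest was Des, at -4.35. Igfbp3 lies on chromosome 11 from 7156086 to 7164179 on the minus strand. Its 57 neighbours had a median of -0.09 and a minimum of -1.44. Tns3, the next gene past the filter after it, was 46.4 FPKM in WT and 38.2 FPKM in KO. Igf2r lies on chromosome 17 from 12901293 to 12988614 on the minus strand. Its 28 neighbours had a median of 0.08, and none was as high. The nearest genes past the filter on either side were Map3k4, 363.4 kb away, and Mrpl18, 141.4 kb away. They were 10.7 and 80.2 FPKM in WT and 12.7 and 82.4 FPKM in KO. The large differences of these 4 genes were thus not shared by most genes around them.

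For Igfbp6 the surroundings did move. On chromosome 15, from 102052697 to 102057953, its 90 neighbours had a median log2 fold change of -0.40 and 12 of them were at least as low as Igfbp6, whose difference from that median was -0.42. Spryd3, 7.7 kb before it, was 30.5 FPKM in WT and 19.7 FPKM in KO, and Tns2, 27.9 kb before it, was 42.9 and 32.8 FPKM. How much of the lower Igfbp6 level belongs to this region was not tested. Igfbp7, on chromosome 5 from 77493130 to 77555931, had 27 neighbours with a median of 0.13, and 2 of them were at least as high. Igf1r and Igf2 lie on chromosome 7, Igf1 on chromosome 10 and Igfbp4 on chromosome 11, with neighbour medians of 0.09, -0.08, 0.38 and -0.05. The tensin genes, cell adhesion adaptors that sit beside several IGFBP genes, were all within 2-fold where measurable, and Tns4 was 0.035 FPKM in WT and 0.257 FPKM in KO.

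**Figure D4:**
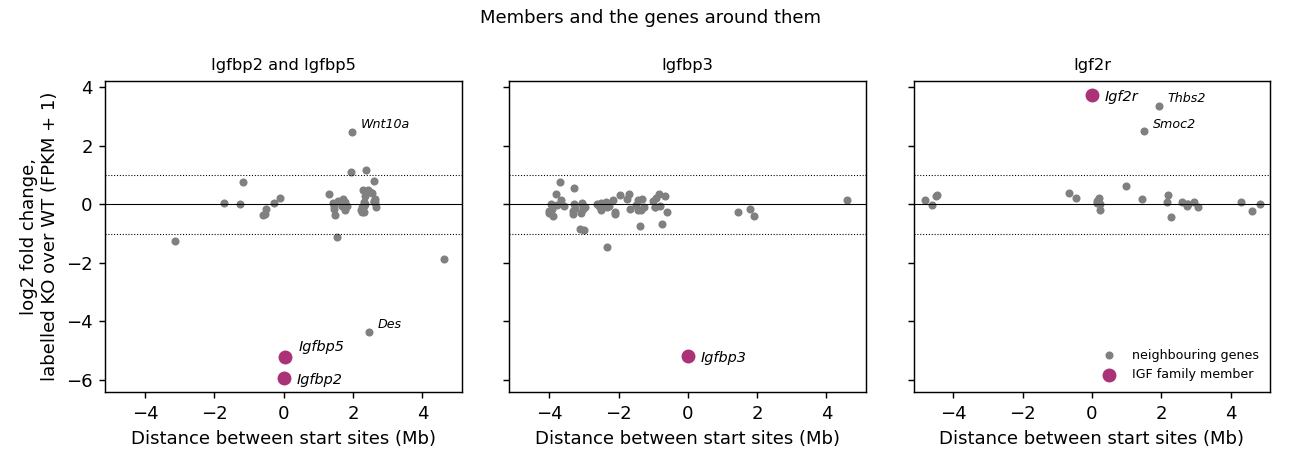
Log2 fold change, library labelled KO over WT, of Igfbp2 and Igfbp5, of Igfbp3 and of Igf2r (purple) and of genes past the filter whose start lies within 5 Mb (grey), against the distance between start sites in Mb. The IGF genes lie beyond every neighbour shown, with Des, at -4.35, the closest to Igfbp5.

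The stretches just before the start sites of Igfbp2 and Igfbp5, the adjacent pair with lower levels, and of Igf2r, the gene with the higher level, are shown because the differences concern RNA made from them. They are RefSeq sequences of build GRCm38.p6, 250 bases long and on the strand of the gene, from chr1:72824230-72824479 (plus), chr1:72874866-72875115 (minus) and chr17:12769707-12769956 (minus). Capitals mark E-boxes, CANNTG, the short motif that myogenic and other helix-loop-helix factors can bind.
Igfbp2: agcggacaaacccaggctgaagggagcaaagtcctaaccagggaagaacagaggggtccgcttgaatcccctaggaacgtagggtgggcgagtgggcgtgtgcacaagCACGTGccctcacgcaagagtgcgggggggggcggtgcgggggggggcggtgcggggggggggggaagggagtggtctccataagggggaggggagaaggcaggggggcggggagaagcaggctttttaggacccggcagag
Igfbp5: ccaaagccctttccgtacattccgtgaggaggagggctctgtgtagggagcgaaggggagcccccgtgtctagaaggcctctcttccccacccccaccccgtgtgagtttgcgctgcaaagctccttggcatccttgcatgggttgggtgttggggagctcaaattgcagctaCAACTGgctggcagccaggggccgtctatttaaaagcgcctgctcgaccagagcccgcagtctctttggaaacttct
Igf2r: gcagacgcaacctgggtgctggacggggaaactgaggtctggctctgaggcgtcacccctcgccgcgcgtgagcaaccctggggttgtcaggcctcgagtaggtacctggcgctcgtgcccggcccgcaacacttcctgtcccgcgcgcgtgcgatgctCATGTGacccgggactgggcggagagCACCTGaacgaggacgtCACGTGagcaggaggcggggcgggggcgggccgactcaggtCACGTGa
RefSeq gives Igfbp2 2 start sites, and the sequence and counts here are those of the upstream one, while the window of the other has 1 E-box that is not CACGTG and 0 GC boxes. In the window printed, Igfbp2 has 1 E-box, CACGTG, starting 142 bases before the start site, Igfbp5 has 1, CAACTG, starting 77 bases before it, and Igf2r has 4, of which 2 read CACGTG, starting 48 and 7 bases before it. The matching window of Igfbp3 also has 1 E-box. On either strand, an E-box was present in 66.2% of the 32851 RefSeq windows of this length, so a single one is common. CACGTG was present in 6.02%. The GC box GGGCGG, searched on both strands and present in 32.7% of windows, occurred 3 times each in these windows of Igfbp2 and Igf2r and was not matched in Igfbp5 or Igfbp3. Genes within 2-fold held these motifs as well. Igfbp7 had 4 GC boxes and Igf1r 2, each with 0 E-boxes, while Igf1, Igfbp4 and Igfbp6 had 1 E-box each and 0 GC boxes. Igf2 is left out because its start sites differ in these counts. Igf2r held 27 CG dinucleotides, Igfbp2 14, Igfbp5 10 and Igfbp3 32, against a median of 6. Among genes within 2-fold, Igf1r held 42, Igfbp7 26, Igfbp4 22, Igfbp6 7 and Igf1 5. The CG count thus did not separate the lower genes from Igf2r. These are letter matches and say nothing about binding.

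Beyond the 10 genes, most of the insulin family was listed at 0 or at low values. Of 14 other insulin, IGF and IGF2 mRNA-binding genes, 8 were at 0 in both libraries (Igfbp1, Insrr, Ins1, Ins2, Insl3, Insl5, Rln1 and Rln3), and Igfals, Insl6 and Igf2bp3 were below 0.2 FPKM in both. Igf2bp2, which binds Igf2 and other mRNAs and is active in growing myoblasts, was 2.15 FPKM in WT and 12.5 FPKM in KO, a ratio of FPKM of 5.81. Its relative Igf2bp1 was 0.059 FPKM in WT and 0.535 FPKM in KO.

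Proteins that share the amino-terminal IGFBP domain moved in both directions. Of 13 such genes, 9 passed the filter, with a median log2 fold change of -0.20, against 0.0061 for all genes. Higher by over 2-fold in KO were Ccn2, the connective tissue growth factor, with 17.5 FPKM in WT and 62.1 FPKM in KO, and Ccn3, with 0.847 and 4.18 FPKM. Lower by over 2-fold were Htra3, a secreted serine protease, with 10.8 and 2.39 FPKM, Kazald1, with 7.41 and 1.57 FPKM, and Ccn5, with 6.01 and 2.37 FPKM.

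Of 13 IGFBP-cleaving proteases and pappalysin inhibitors, 8 passed the filter, with a median of 0.31. Adam12, a metalloprotease that cleaves IGFBP3 and IGFBP5, was 4.58 FPKM in WT and 12.1 FPKM in KO and was the only one beyond 2-fold on the log2(FPKM + 1) scale. Plau, the urokinase plasminogen activator, was just short of it, at 10.04 FPKM in WT and 20.6 FPKM in KO, a log2 fold change of 0.97 and a ratio of FPKM of 2.06. Pappa, the IGFBP4 protease, was listed at 0 in WT and at 0.117 FPKM in KO. Of 7 reported surface partners of IGFBPs, 4 passed the filter, with a median of 0.40, and Lrp1, an endocytic receptor that binds IGFBP3, was 69.8 FPKM in WT and 143.6 FPKM in KO, a ratio of FPKM of 2.06 and a log2 fold change of 1.03.

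The RNA levels of intracellular pathway genes differed little. They do not measure pathway activity, and the paper reports raised phosphorylation of AKT in its KO cells. Of 40 genes for adaptors, kinases and phosphatases downstream of the IGF and insulin receptors, 36 passed the filter, 0 were more than 2-fold changed, and the median log2 fold change was 0.12. In this comparison without replicates, 25 were higher and 11 lower in the library labelled KO, where 50.7% of all genes were higher. The lowest and the highest, named after their values were seen, were Irs1, the main adaptor of IGF1R, with 37.7 FPKM in WT and 22.8 FPKM in KO, and Foxo1, a transcription factor restrained by AKT, with 3.07 and 6.10 FPKM. Akt1 was 167.5 FPKM in WT and 185.3 FPKM in KO. Of 16 genes known as FoxO targets, 15 passed the filter, 13 of these were lower and 2 higher, and the median was -0.16, where 49.3% of all genes were lower. Only Sesn3 was more than 2-fold lower, with 3.03 FPKM in WT and 0.779 FPKM in KO. Fbxo32 and Trim63, ubiquitin ligases of muscle atrophy, were 5.50 and 0.326 FPKM in WT and 3.27 and 0.150 FPKM in KO. Irs2 and Insr are counted both here and in lists above.

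**Figure D5:**
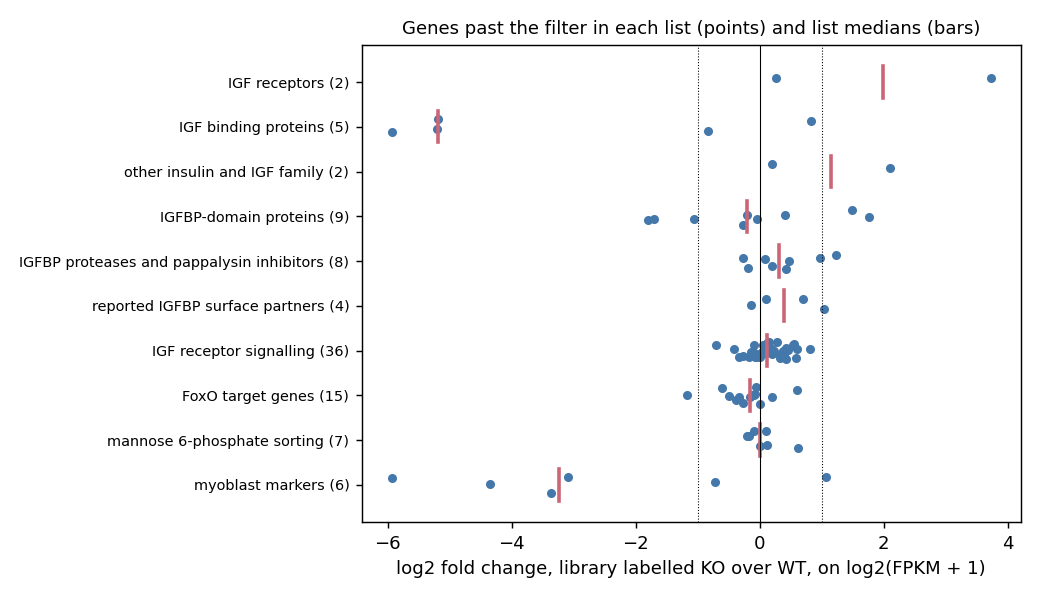
Log2 fold change on log2(FPKM + 1), library labelled KO over WT, of genes past the filter in the lists named on the axis. Numbers of genes are in brackets, bars mark list medians and dotted lines mark 2-fold. The tensins, macrophage markers and fibroblast markers, the last with a median of 2.99, are not plotted. The 36 signalling genes lie within 2-fold, while the IGF binding proteins and myoblast markers hold points beyond -3.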

How the data were processed

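RNA from C2C12 cells, 1 library of WT and 1 of Gne KO, was measured by sequencing. The deposited values, 1 for each symbol in each library, were read as FPKM: no unit is named, and low values come in steps that shrink with transcript length. They could also be a TPM table limited to these genes, in which case fold changes would differ by 1 factor common to all genes. The paper's methods give TrimGalore, STAR, GRCm39 and RSEM, and the submitters' processing notes give Trim Galore 0.6.6, STAR 2.7.9a, RSEM 1.3.3 and GRCm38. The paper names an MGI library kit and the sample labels an Illumina one. Groups were taken from the genotype labels.

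Symbols present more than once (24 of 21853 rows) were reduced to the row of higher mean. Log2((KO + 1)/(WT + 1)) was computed for each gene, and the 10542 genes averaging 1 FPKM or more were ranked and counted, of which 10160 had a position in GENCODE vM39 on GRCm39. The design foresaw a fold threshold without a test, since DESeq2 as used by the authors needs replicates. The most frequent ratio of the KO to the WT value among 1150 genes below 0.2 FPKM was 1.13. A single fragment reads higher in a shallower library, so this estimate of relative depth makes KO the shallower library. The settings for low values were chosen after the data were seen. Named genes were the 10 members, genes beyond 2-fold in each list, every gene of the insulin family, tensin and myoblast lists and the 2 nearest genes by level. Members and lists were chosen with earlier results of these data known. Further genes named as examples were picked with their values in view. Alternatives were other scalings, pseudocounts of 0.1 and 5, no filter, a filter at 5 FPKM, and windows of 2 Mb around members. The steps were tested on simulated data. Python 3.11.15, numpy 2.4.6 and pandas 2.3.3 were used. Protein sequences were not used here.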

Additional observations from a re-analysis of the deposited data

How the results depend on the processing

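No paired analysis was possible because WT and KO have 1 library each, which also leaves no replicate to leave out. A value was taken as moved beyond the interquartile width of all genes, 0.438, and a count beyond 1.5 times, rules chosen with the values known. Of 142 alternative values, 116 did not move and 26 moved. No value beyond 2-fold changed sign. The median of the mannose 6-phosphate sorting genes, 0.0053, changed sign to -0.00042 with the median of ratios and -0.0082 at the same total, and that of the tensins, -0.27, to 0.0038 without the filter. The counts of 3 lower and 1 higher IGF genes held under scaling by the median of ratios or to the same total, pseudocounts of 0.1 and 5, both filters and subtraction of the neighbours' median. The log2 ratio of the summed binding proteins was -0.54, and -0.56 after scaling to the same total. Igf2r ran from 1.83 with a pseudocount of 5 to 6.36 with 0.1, Igfbp2 from -3.70 to -9.23, Igfbp3 from -3.06 to -7.94 and Igfbp5 from -3.84 to -5.88, so their sizes depend on the pseudocount.

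With a pseudocount of 5, 102 genes in all were higher and 176 lower. Under the stricter filter of 5 FPKM, which keeps fewer genes, these were 145 and 221. Medians of 4 lists moved. That of the other insulin family was 0.703 with a pseudocount of 5, 0 without a filter and 2.10 under the stricter filter. That of the myoblast markers was -4.15 with a pseudocount of 0.1, -1.85 with 5 and -0.682 without a filter. That of the fibroblast markers was 2.10 with a pseudocount of 5 and 0.625 without a filter. That of the macrophage markers, a single gene past the filter, was -1.35 with a pseudocount of 0.1, -0.373 with 5 and 0 without a filter.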

Other observations

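Some genes near the IGF genes also differed by more than 2-fold and are named here after their values were seen. Within 5 Mb of Igf2r, 2 of 28 genes were higher in KO by over 2-fold and 0 were lower, where 2.84% of all genes were higher and 3.43% lower. With so few genes, nothing particular to this region is read from these 2. They were Thbs2, a matricellular protein, with 2.80 FPKM in WT and 37.8 FPKM in KO, and Smoc2, another matrix protein, with 0.406 and 6.92 FPKM. Around Igfbp2 and Igfbp5, 3 of 47 genes were higher by over 2-fold and 4 were lower, where 2.84% of all genes were higher and 3.43% lower. The difference in these shares was not tested. The highest was Wnt10a, a secreted Wnt ligand, with 7.25 FPKM in WT and 44.6 FPKM in KO. Around Igfbp3, 1 of 57 genes differed by over 2-fold and was lower in KO, Nipsnap1, a mitochondrial protein.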
